A study of Rattus norvegicus with 5 samples.

Results

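The pore-forming and auxiliary subunits of voltage-gated sodium and calcium channels were followed in rat parietal cortex after kaolin injection. All probes other than controls were taken whose gene name began with Scn and a digit, Cacna, Cacnb or Cacng. That rule gave 53 probes for 39 genes among 41012 probes. The 39 genes comprised 10 sodium channel alpha, 4 sodium channel beta, 10 calcium channel alpha1, 3 alpha2delta, 4 beta and 8 gamma genes. Testing was limited to probes flagged well above background, in either channel, on 3 or more arrays, which left 47 member probes for 36 genes. The other 6 probes, for Cacna1f, Cacng5, Scn4a and second probes of Cacna1c, Scn8a and Scn4b, were above background on 0 arrays.

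Kaolin samples came from rats injected with kaolin on postnatal day 1, and saline samples from rats injected with saline on the same day. Both were taken on postnatal day 22, which is post-kaolin day 21. Kaolin is a clay used to obstruct the flow of cerebrospinal fluid, and the labels call the kaolin pups hydrocephalic. On each of 5 two-colour arrays a kaolin sample labelled with Cy3 was set against a saline sample labelled with Cy5, so dye and treatment cannot be told apart. The labels give no genotype, strain or sex, and they do not say whether a sample was a single animal, so p-values measure the spread between arrays.

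Voltage-gated sodium channels carry the rising phase of the action potential through an alpha subunit that forms the pore, while beta subunits adjust its gating and its place in the membrane. Voltage-gated calcium channels turn depolarisation into calcium entry, which drives transmitter release at terminals and signalling to the nucleus in cell bodies and dendrites. Their alpha1 subunit forms the pore, alpha2delta and beta subunits bring it to the membrane, and most brain gamma subunits are known chiefly as partners of AMPA-type glutamate receptors.

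The arrays differed among themselves before any channel gene was considered. Probes flagged well above background numbered 27956 to 29384 for kaolin and 27371 to 28927 for saline. The SD of the log2 ratios of kaolin over saline was lowest on replicate 2, at 0.242, and highest on replicate 3, at 0.507. Ratios of replicates 1 and 2 correlated at -0.37 over all probes, while those of replicates 3 and 4 correlated at 0.83. The dyes are stated in the labels, so the direction of replicate 2 was kept. All 14 neuronal marker genes were well above background in both channels on all 5 arrays. Replicates 1 to 4 lay on 1 slide and replicate 5 on another.

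Most channel genes lay slightly lower in kaolin cortex than in saline cortex, but no single gene passed the adjusted test over all 5 arrays. The mean log2 ratio was below 0 for 29 of 36 genes and for 38 of 47 probes (80.9%), beside 50.8% of all 29110 tested probes. The median over the 36 genes averaged -0.16 ± 0.22 (SD, n = 5 arrays), while the median of all tested probes averaged -0.0042. Means above 0 were found for 7 genes, among them Scn7a, whose saline signal was well above background on 0 arrays and whose difference is therefore given as a bound.

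With limma and Benjamini-Hochberg adjustment over all tested probes, 0 member probes and 0 of all probes (0%) had an adjusted p under 0.05, and the smallest adjusted p was 0.243. At an unadjusted p under 0.05, 13 of 47 member probes (27.7%) were lower in kaolin, beside 9.31% of all tested probes. Higher in kaolin at that threshold was 1 member probe, Scn7a, beside 8.83% of all probes. That probe passed the filter only through its kaolin channel, so its count supports nothing about the members. The 13 lower probes belonged to Scn1a, Scn2a, Scn8a, Scn11a, Scn3b, Cacna1a, Cacna1d, Cacna1e and Cacng8. Their count depended on single arrays: it was 5 without replicate 1, 23 without replicate 2, 2 without replicate 3, 2 without replicate 4 and 7 without replicate 5. With the slide as a term of the fit it was 4. The share of all tested probes at that threshold is not given for these settings. The counts therefore show only how unsteady the number was. Scn7a no longer had an unadjusted p under 0.05 without replicate 3, without replicate 4 or without replicate 5.

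**Figure D1:**
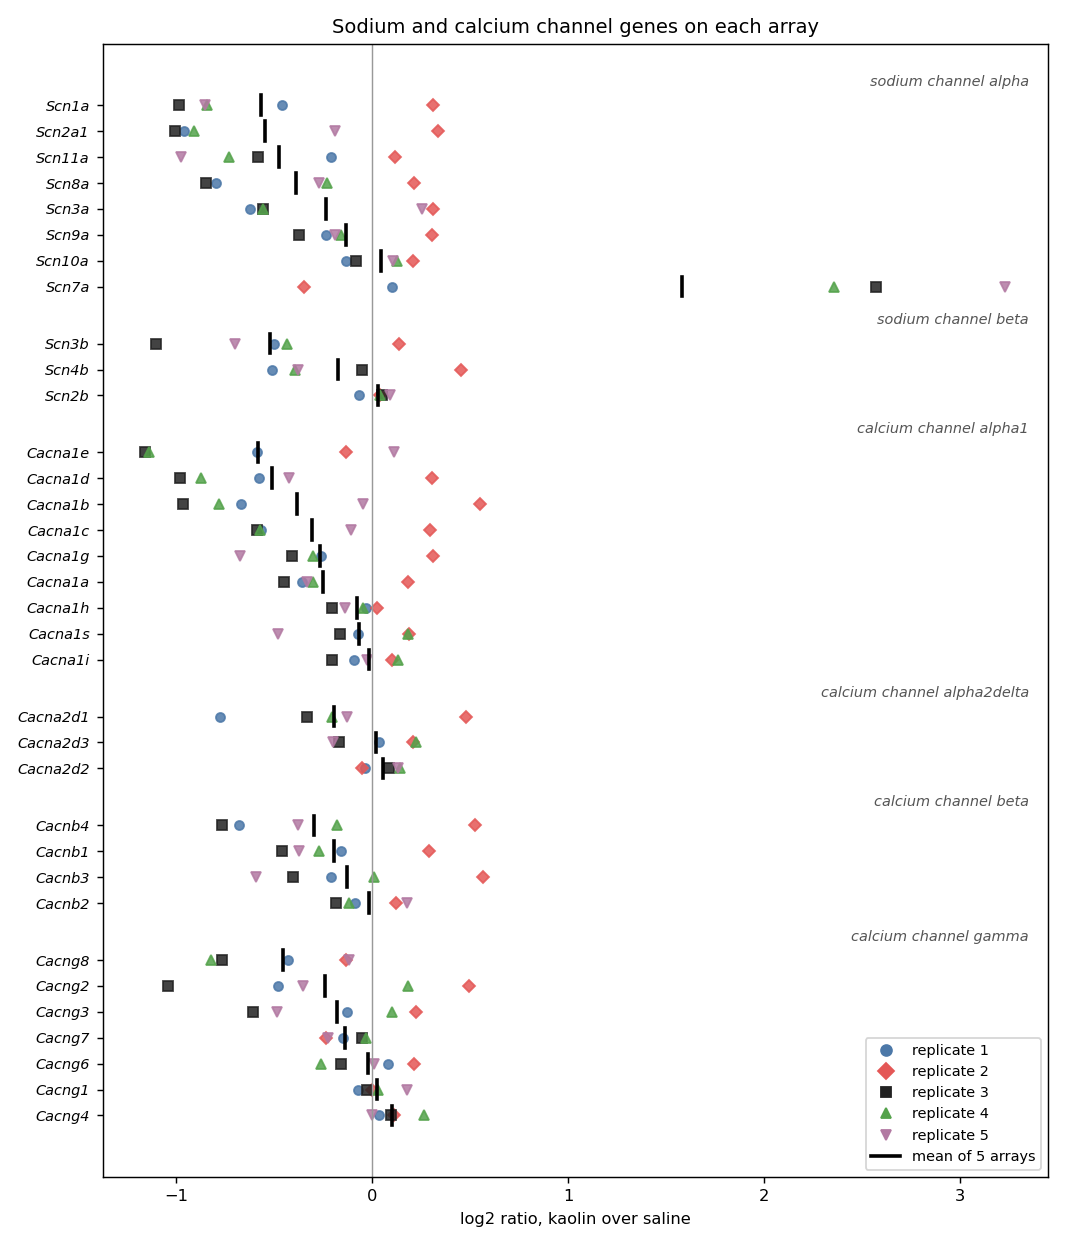
Log2 ratio of kaolin over saline for 34 tested genes, grouped by subfamily, with 1 symbol per array and a black bar at the mean of the 5 arrays. Replicate 2 lies above 0 for 28 of them, and Scn7a on replicates 3, 4 and 5 lies beyond all other values.

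Replicate 2 stood apart for these genes, but not for them alone. Over all tested probes it correlated at -0.37, -0.17, -0.07 and -0.06 with replicates 1, 3, 4 and 5. Medians of the neuronal, potassium channel, channel partner and AMPA receptor lists given below were 0.19, 0.11, 0.20 and 0.10 on replicate 2. All of these medians were below 0 on the other arrays. Among the channel genes, 30 of 36 genes and 38 of 47 probes (80.9%) were above 0 on replicate 2, beside 50.4% of all tested probes. On replicates 1, 3, 4 and 5 the genes above 0 numbered 4, 4, 13 and 9. Below 0 on those 4 arrays were 23 member probes (48.9%), beside 18.9% of all probes, and 19 of them (40.4%) were also above 0 on replicate 2, beside 12.3%. This pattern was counted after the values were seen. Markers of the pineal gland also set replicate 2 apart: the median of the 3 tested was -2.63 on it and between -0.26 and -0.05 on the others. Of these markers Tph1 was at -5.90, Asmt at -2.63 and Aanat at -0.20 on replicate 2. Tph1 was well above background on 1 kaolin and 4 saline arrays. It was also at -1.26, -1.13 and -0.67 on replicates 3, 4 and 5. The part of the pineal markers in the channel ratios was not tested. Above 0 on replicates 1, 3, 4 and 5 were 2 member probes (4.26%), beside 18.4%.

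Probes below 0 on all 5 arrays numbered 4 of 47 (8.51%), beside 6.64% of all tested probes. They were the probes of Cacng7 and Cacng8 and a pair of Cacna1e probes. The dimmer Cacnb2 probe was the only member probe above 0 on all 5 arrays, beside 6.23% of all probes.

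Without replicate 2, 5 member probes (10.6%) fell at an adjusted p under 0.05 by limma, beside 2.80% of all probes, and 0 rose, beside 2.41%. In either direction 5.21% of all probes passed. Scn1a fell by 0.79 on the log2 scale (adjusted p = 0.0405, limma), Cacna1d by 0.72 (0.0413), Scn3b by 0.69 (0.0450), Cacna1a by 0.36 (0.0466) and Scn2a by 0.77 (0.0476). Other probes of Cacna1d (adjusted p = 0.0699 and 0.505, limma) and the second Scn2a probe (0.0726) did not pass. In linear terms, Scn1a was 1.73-fold and Cacna1a 1.28-fold lower in kaolin on those 4 arrays. None of these calls was made when any other array was left out. All 5 called probes were above 0 on replicate 2, so leaving it out removed the values that opposed a fall. The calls are therefore no separate support for lower levels in kaolin.

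Among the sodium channel alpha genes, the 4 main pore subunits of brain all had means below 0. Scn1a, the channel on which fast-spiking interneurons depend most, had log2 ratios of -0.46, 0.31, -0.99, -0.85 and -0.86 on replicates 1 to 5 (mean -0.57 ± 0.53, SD; adjusted p = 0.243, limma). Its probe lies on chromosome 3 at 48239066 to 48239125 of rn4, minus strand. The value was below 0 on 4 arrays and above it on replicate 2.

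Scn2a, listed on the array as Scn2a1 and found in axons of excitatory neurons, had -0.96, 0.33, -1.01, -0.91 and -0.19 (mean -0.55 ± 0.60; adjusted p = 0.255, limma). A second Scn2a probe averaged -0.26 ± 0.56 with the same signs. Scn8a, the channel of mature axon initial segments and nodes of Ranvier, had -0.80, 0.21, -0.85, -0.23 and -0.27 (mean -0.39 ± 0.44; adjusted p = 0.271, limma). Scn3a, which is most abundant in the developing brain, had -0.63, 0.31, -0.56, -0.56 and 0.26 (mean -0.23 ± 0.47). Of these genes, Scn3a alone had a second array above 0.

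Channels best known from sensory neurons and muscle were also on the array. Scn11a, a sensory neuron channel, had -0.21, 0.11, -0.59, -0.73 and -0.98 (mean -0.48 ± 0.43; adjusted p = 0.243, limma), and its adjusted p without replicate 2 was 0.0510. Scn9a, another sensory neuron channel, had -0.24, 0.30, -0.38, -0.16 and -0.19 with its brighter probe, while its dimmer probe averaged 0.03. The sensory neuron gene Scn10a averaged 0.05. Scn4a, the skeletal muscle channel, was above background on 0 arrays in both channels and was not tested.

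Scn7a encodes an atypical relative of these channels that responds to extracellular sodium rather than voltage and is known in rodents from glia. Its ratios were 0.10, -0.35, 2.57, 2.35 and 3.23 on replicates 1 to 5. The kaolin signals, after subtraction of the local background, were 7.72, -2.51, 269, 204 and 481 intensity units, against 4.23, 13.0, 15.3, 0.683 and 6.67 units in the saline channel. The kaolin signals of replicates 3, 4 and 5 were above all saline signals, while those of replicates 1 and 2 lay in or below the range of the saline signals.

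The Scn7a probe, at 48633684 to 48633743 on chromosome 3 of rn4, minus strand, was well above background on 3 kaolin arrays and 0 saline arrays. It passed the filter only through the kaolin channel, and its saline level is known only as a bound. As saline floor, on each array, the higher of the lowest signal well above background and the probe's own was taken. With the kaolin signals as measured, the mean over 5 arrays was then at least 2.70-fold higher in kaolin. Mean log2 signals were 7.57 in kaolin and 5.99 in saline. The bound covers the saline side only. On replicates 1 and 2 kaolin was not well above background either, and the ratios were 0.10 and -0.35. The fit of the measured ratios, whose saline side lay at background, did not pass the adjusted test (adjusted p = 0.243, limma).

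**Figure D2:**
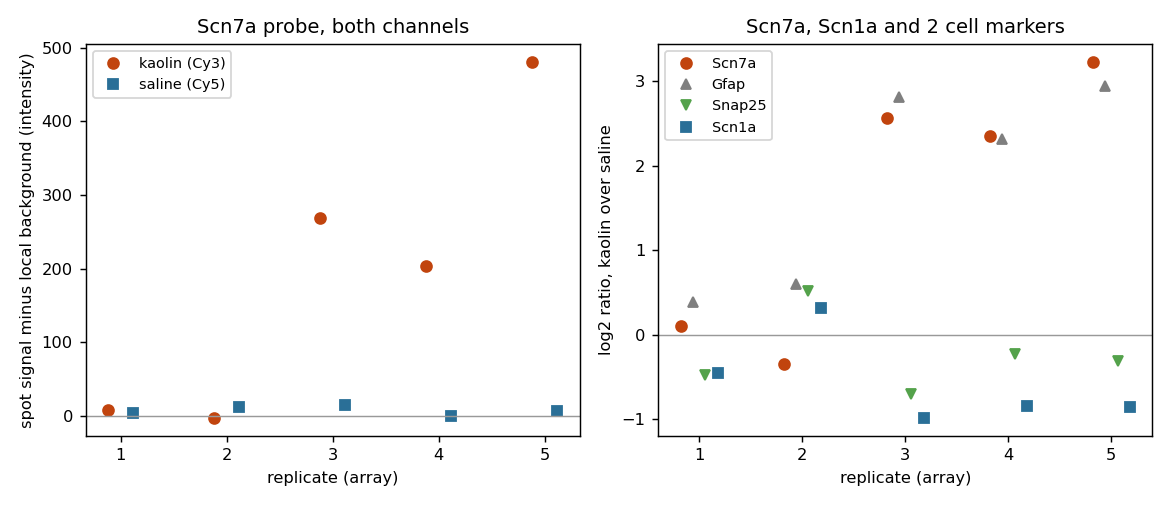
Left, Scn7a spot signal minus local background in intensity units for the kaolin and saline channels of each array; right, log2 ratios of kaolin over saline for Scn7a, Scn1a, the astrocyte marker Gfap and the neuronal marker Snap25. Kaolin signals of 269, 204 and 481 on replicates 3, 4 and 5 stand above all saline signals.

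Glial marker lists differed in how they ran beside Scn7a. Gfap, the intermediate filament of astrocytes, had 0.39, 0.60, 2.81, 2.31 and 2.95, but the median of the 8 astrocyte markers was -0.06, 0.24, 0.57, 0.06 and 0.47 on replicates 1 to 5. The 8 tested microglia and macrophage markers all had means above 0, and their median was -0.06 on replicate 1, 0.10 on replicate 2 and at most 2.16 on the others, where replicate 3 was highest. Of the 8 astrocyte markers 4 had means above 0. Among them Vim had 0.04, 0.08, 2.72, 2.14 and 2.93 on replicates 1 to 5. The glutamate transporter genes Slc1a2 and Slc1a3 averaged -0.07 and -0.08. The median of 7 myelinating oligodendrocyte markers was 0.19, 0.07, 0.11, 0.26 and -0.62. The part of these cell types in the Scn7a ratio was not tested.

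Markers of neurons in general were low on the arrays where the channel genes were low, while interneuron markers ran otherwise on replicates 1 and 2. Snap25, a protein of synaptic vesicle fusion, had -0.48, 0.52, -0.71, -0.23 and -0.31. Of the 14 neuronal markers 13 had means below 0, with a median of -0.36, 0.19, -0.45, -0.23 and -0.29 on replicates 1 to 5. Of 8 tested markers of fast-spiking and other interneurons, which include Gad1 and Gad2 of the neuronal list, 6 had means below 0. Their median was 0.05, -0.09, -0.37, -0.08 and -0.52. In whole tissue, fewer cells of a type and less RNA per cell cannot be told apart, and the part of cell composition in the channel ratios was not tested. The choroid plexus gene Ttr had -4.11, -1.89, -4.29, -3.85 and -0.12, and all 5 tested choroid plexus markers had means below 0. The mean of Folr1 was only -0.0097, with 0.62 and 0.39 on replicates 4 and 5. Otx2 was well above background on 1 kaolin and 4 saline arrays, and Clic6 on 0 kaolin and 3 saline arrays.

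Scn1a, Scn2a, Scn3a, Scn7a and Scn9a lie together on chromosome 3, with probes spanning 1137 kb from 47496272 to 48633743 of rn4. Scn1a had the lowest mean of these neighbours.

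Of the sodium channel beta genes, which encode single-pass membrane proteins with an immunoglobulin domain, Scn3b had the lowest ratios, at -0.50, 0.13, -1.10, -0.43 and -0.70 (mean -0.52 ± 0.45; adjusted p = 0.243, limma). Scn4b, tied to fast resurgent sodium current, had -0.51, 0.45, -0.05, -0.39 and -0.38 (mean -0.18 ± 0.39). Scn2b, which is linked to the alpha subunit by a disulphide bond, had -0.07, 0.04, 0.05, 0.04 and 0.09 (mean 0.03 ± 0.06). Of these genes Scn2b varied least between arrays and Scn3b most.

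All 9 tested calcium channel alpha1 genes had means below 0, except that Cacna1i was at 0.0273 without replicate 3 and Cacna1s at 0.0332 without replicate 5. The L-type genes Cacna1c and Cacna1d carry calcium signals to the nucleus. Cacna1d had -0.58, 0.31, -0.98, -0.87 and -0.43 (mean -0.51 ± 0.51; adjusted p = 0.245, limma). Its other probes averaged -0.46 and -0.03, so probes of the gene disagreed in size. Cacna1c had -0.57, 0.29, -0.59, -0.58 and -0.11 (mean -0.31 ± 0.39). That probe was printed in 10 spots, whose SD within an array was 0.07 to 0.10, below the spread between arrays.

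Cacna1a, Cacna1b and Cacna1e encode the P/Q-, N- and R-type channels, of which the P/Q and N types drive transmitter release. Cacna1a had -0.36, 0.18, -0.45, -0.30 and -0.33 (mean -0.25 ± 0.25; adjusted p = 0.268, limma). Cacna1b had -0.67, 0.55, -0.97, -0.78 and -0.05 (mean -0.38 ± 0.63), while its dimmer probe averaged -0.08. Cacna1e had the lowest mean of any member gene, with -0.59, -0.14, -1.16, -1.14 and 0.11 (mean -0.58 ± 0.57; adjusted p = 0.244, limma). Its 4 probes all had means below 0, between -0.58 and -0.21.

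The T-type genes, whose channels open near resting potential and support burst firing, differed in size. Cacna1g had -0.26, 0.31, -0.41, -0.30 and -0.68 (mean -0.27 ± 0.36). Cacna1h had -0.03, 0.03, -0.21, -0.05 and -0.14, and Cacna1i had -0.10, 0.10, -0.21, 0.13 and -0.03, neither below -0.21 on any array. Cacna1s, the skeletal muscle L-type gene, averaged -0.07. The retinal gene Cacna1f was above background on 0 arrays and was not tested.

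Alpha2delta subunits, the binding site of gabapentin in the case of Cacna2d1, had no common direction, and their median was -0.17 with the software's own ratios and -0.21 with median centring. Cacna2d1 had -0.78, 0.48, -0.33, -0.21 and -0.13 (mean -0.19 ± 0.45). Cacna2d2 had -0.04, -0.05, 0.08, 0.14 and 0.13, and Cacna2d3 had 0.03, 0.21, -0.17, 0.22 and -0.20. Both of these genes crossed 0 between arrays. Cacna2d2 lay near background, and was well above it on 3 kaolin and 2 saline arrays. Under the stricter filter, which left Cacna2d2 out, the alpha2delta median was -0.0878.

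Calcium channel beta subunits bind the cytoplasmic side of the pore and promote its delivery to the membrane, and all 4 had means below 0, except that Cacnb2 was at 0.0567 as the median over its probes and at 0.0537 with slide as a term. Cacnb4 had -0.68, 0.52, -0.76, -0.18 and -0.38 (mean -0.30 ± 0.51; adjusted p = 0.399, limma), and its second probe averaged -0.16. Cacnb1 had -0.16, 0.29, -0.46, -0.27 and -0.38 (mean -0.20 ± 0.29). Cacnb3 had -0.21, 0.57, -0.41, 0.01 and -0.59 (mean -0.13 ± 0.45). The brighter Cacnb2 probe had -0.09, 0.12, -0.18, -0.12 and 0.18, while the dimmer one had 0.16, 0.02, 0.06, 0.31 and 0.11. The mean ratios of the Cacnb2 probes therefore differed in sign.

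Among the gamma genes, Cacng8, an AMPA receptor partner enriched in forebrain, had the smallest unadjusted p of any member gene. Its ratios were -0.43, -0.14, -0.77, -0.82 and -0.12 (mean -0.46 ± 0.33; adjusted p = 0.243, limma). Cacng7, a related AMPA receptor partner, had -0.15, -0.24, -0.05, -0.03 and -0.22 (mean -0.14 ± 0.09). These were the genes below 0 on all 5 arrays.

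Of the other AMPA receptor partners, Cacng2 and Cacng3 varied more between arrays than Cacng7 and Cacng8, while Cacng4 varied less than Cacng8. Cacng2, known as stargazin, had -0.48, 0.49, -1.04, 0.18 and -0.35 (mean -0.24 ± 0.60), and Cacng3 had -0.13, 0.22, -0.61, 0.10 and -0.48 (mean -0.18 ± 0.36). Cacng4 had 0.04, 0.11, 0.09, 0.26 and -0.0024. The muscle gene Cacng1 averaged 0.02 and Cacng6 averaged -0.02, and Cacng5 was above background on 0 arrays and was not tested.

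Subfamily medians were taken over genes on each array. Sodium channel alpha genes had medians of -0.26, 0.21, -0.56, -0.23 and -0.19 (mean -0.20 ± 0.27), and calcium channel alpha1 genes had -0.36, 0.19, -0.45, -0.30 and -0.14 (mean -0.21 ± 0.25). Sodium channel beta genes averaged -0.19 ± 0.21, calcium channel beta genes -0.15 ± 0.33, gamma genes -0.05 ± 0.12 and alpha2delta genes 0.0014 ± 0.17. Each SD exceeded the size of its mean. The subfamilies were measured on the same arrays, and differences between them were not tested, so their order is only descriptive.

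**Figure D3:**
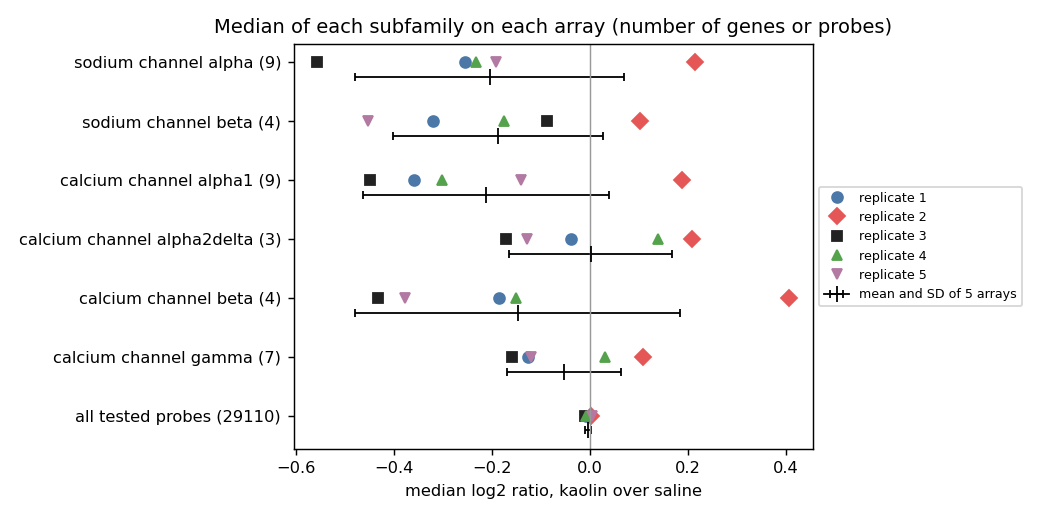
Median log2 ratio of kaolin over saline in each subfamily on each of the 5 arrays, with the mean and SD drawn below the symbols and the number of genes in brackets; the lowest row holds all 29110 tested probes. Replicate 2 is the highest array in every subfamily.

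Member probes lay mostly below 0 among bright and among dim probes, and the difference between bright and dim was not tested. Of 21 member probes brighter than the median tested probe, 20 had means below 0 (95.2%), beside 50.7% of all bright probes, with a median of -0.26. Of 26 dimmer member probes, 18 did (69.2%), beside 50.8% of all dim probes, with a median of -0.07. With arrays centred on their median instead of by loess, the median of all brighter probes itself was -0.20 and that of the 36 genes -0.38.

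**Figure D4:**
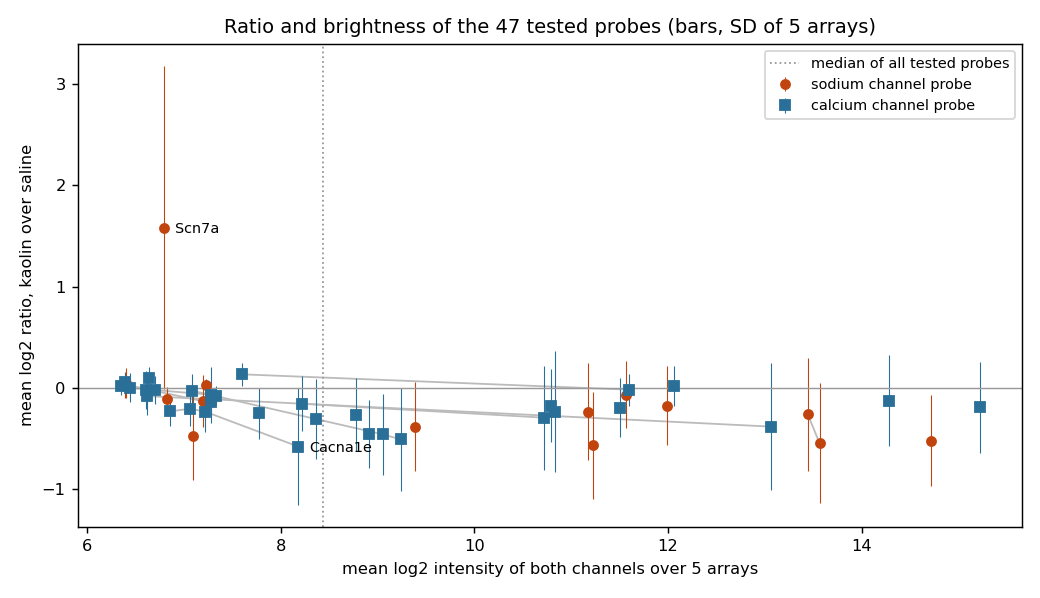
Mean log2 ratio of kaolin over saline against mean log2 intensity of both channels for the 47 tested probes, with the SD of 5 arrays as bars and grey lines joining probes of a gene. Of the 21 probes right of the dotted median, 20 lie below 0.

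Genes that work with these channels also lay mostly below 0. Of 27 tested voltage-gated potassium channel genes 23 had means below 0, and of 26 channel partner genes 20 did, with medians averaging -0.13 ± 0.15 and -0.16 ± 0.23. Beside them, 50.8% of all tested probes had means below 0. The partner list shares Snap25 and Syt1 with the neuronal markers. Kcnq3, a subunit of the M-current that limits repetitive firing, had ratios between -2.54 and -0.65 (mean -1.41 ± 0.83; adjusted p = 0.243, limma). Its value was below 0 on all 5 arrays.

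On the higher side, Kcnip2, an auxiliary subunit of A-type potassium channels, had 0.29, 0.25, 0.41, 0.39 and 0.16 (mean 0.30 ± 0.10; adjusted p = 0.243, limma). Of the partners, Calm2, a calmodulin gene, averaged -0.40 ± 0.25. Of 6 tested AMPA receptor genes and partners 4 had means below 0, with a median averaging -0.26 ± 0.21. The highest of them, Gria1, had -0.03, 0.23, 0.42, 0.58 and 0.62 (mean 0.36 ± 0.27). In each of these lists 0 genes passed the adjusted test over 5 arrays.

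Promoter windows, 250 bases before to 50 after a gene's start, were matched by symbol for 27 of 39 genes, in 30 windows of the RefSeq table for GRCr8. The windows of Scn7a, given above as a bound, of its cluster neighbour Scn2a and of Cacna1d are shown, with CG dinucleotides in capitals. They lie at chr3:71846235-71846534 (minus strand), chr3:70710706-70711005 (plus strand) and chr16:5527500-5527799 (minus strand).
Scn7a: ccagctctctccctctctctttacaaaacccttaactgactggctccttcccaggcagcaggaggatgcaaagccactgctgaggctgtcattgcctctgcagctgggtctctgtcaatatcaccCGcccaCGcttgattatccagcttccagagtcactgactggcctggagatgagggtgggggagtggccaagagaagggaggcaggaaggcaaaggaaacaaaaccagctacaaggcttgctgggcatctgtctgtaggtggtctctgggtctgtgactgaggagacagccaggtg
Scn2a: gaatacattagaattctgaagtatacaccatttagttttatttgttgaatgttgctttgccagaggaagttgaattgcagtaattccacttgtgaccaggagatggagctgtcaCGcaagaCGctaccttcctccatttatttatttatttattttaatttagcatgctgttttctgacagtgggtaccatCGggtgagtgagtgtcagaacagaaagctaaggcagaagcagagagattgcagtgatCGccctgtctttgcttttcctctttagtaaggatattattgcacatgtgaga
Cacna1d: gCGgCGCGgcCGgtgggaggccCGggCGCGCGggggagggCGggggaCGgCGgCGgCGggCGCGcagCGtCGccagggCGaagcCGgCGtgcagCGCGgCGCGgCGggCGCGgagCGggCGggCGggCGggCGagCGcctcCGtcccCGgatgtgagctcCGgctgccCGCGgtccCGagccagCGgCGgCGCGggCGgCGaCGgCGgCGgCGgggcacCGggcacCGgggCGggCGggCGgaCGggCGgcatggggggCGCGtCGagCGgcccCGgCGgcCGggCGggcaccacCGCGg
Scn7a had 2 CG dinucleotides, Scn2a 4 and Cacna1d 66, beside a median of 13.5 in member windows and 7 in all 33469 windows. The GC box GGGCGG, searched on both strands and itself holding a CG, was in 16 member windows (53.3%), beside 33.1% of all. The motif TGANTCA was in 1 member window (3.33%), beside 7.33%, and TTCNNNGAA in 2 (6.67%), beside 8.87%, both searched on both strands. A match describes letters and not a bound site.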

How the data were processed

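Ratios came from 5 two-colour Agilent rat arrays. Per the file headers, the deposited mean spot signals and local backgrounds are raw intensity values from Agilent Feature Extraction 10.1.1.1, and the processed signals are background-subtracted, dye-normalized intensity values. Per the file headers, the software's log10 ratio is Cy5 over Cy3. Background, saturation and outlier flags are other values of 0 or 1, per the file headers. The authors' deposited value table was read as log2 ratios of kaolin over saline by comparison with each array; its normalization was not given in the sources used here.

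Signals were corrected with normexp (offset 50), loess-normalized within arrays and tested against 0 with limma 3.58.1 in R 4.3.3, adjusting over all 29110 tested probes; fold changes are on the log2 scale. Control spots and 86 to 147 outlier spots per array were left out, and spots of a probe were averaged. A gene is represented by its brightest tested probe. Probe positions are those of rn4 in the files. No exon or intron is given for them, since no annotation of that build was used here. The script was tested on simulated data. Precision is limited by the number of arrays. Genes were named if they belonged to a panel of brain subunits, had the smallest unadjusted p in their subfamily, or had probes of opposite sign. Some genes are counted but not reported singly here. Members and lists were chosen with earlier results of these data known. Alternatives were other background corrections, normalizations, filters, array weights, slide, each array left out, the sign of replicate 2 turned, and other probes per gene; slide as a term was added after seeing the data.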

Additional observations from a re-analysis of the deposited data

Results flagged for a closer look

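Cacna1a, the P/Q-type pore subunit, had a log2 ratio of 0.18 on replicate 2, while the other 4 arrays lay between -0.45 and -0.30. The gap to the nearest array was 0.770 of the whole range, above Dixon's critical value of 0.71 for 5 values. It was the 1 set of values marked among 42 examined, and chance alone marks about 1 in 20.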

How the results depend on the processing

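Means of 26 to 31 of 36 genes were below 0 under every alternative with all 36 genes, and of 28 of 31 under the stricter filter. The number of all probes with an adjusted p under 0.05 (limma) was 22 with median centring, 3487 with array weights and 487 with the sign of replicate 2 turned, and 0 to 1518 with 1 array left out. For member probes it was 12 with array weights, 2 with replicate 2 turned, and 0 to 5 with 1 array left out. Turning replicate 2 goes against the dyes in the labels. Since 38 of 47 member probes were above 0 on replicate 2, turning it had to lower their means, so that setting supports nothing about them. Member probes lower at an unadjusted p under 0.05 numbered 23 with median centring, 20 with array weights, 24 with replicate 2 turned, 4 with slide as a term and 2 to 23 with 1 array left out. Higher ones numbered 0 under the stricter filter, 2 with array weights and 0 to 1 with 1 array left out. Shares over all tested probes at the unadjusted threshold are not given for these settings, so larger counts are no added support for lower levels. With median centring the median of all brighter probes was itself -0.20. The alpha2delta median was -0.17 with processed signals, -0.17 with the software's ratios, -0.17 with the authors' values and -0.21 with median centring. Array weights gave replicate 2 the least weight, 0.461, and replicate 4 the most, 2.38.

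Genes near 0 changed sign. Cacng1 was -0.0306 without background subtraction, -0.127 with processed signals, -0.128 with the software's ratios and -0.128 with the authors' values. Cacng6 was 0.0133 without background subtraction and 0.0037 with median centring. Cacna2d3 was -0.0258 with processed signals, -0.0264 with the software's ratios and with the authors' values, -0.202 with median centring, -0.0652 with replicate 2 turned and -0.0642 with slide as a term. Scn2b was -0.0210 with median centring and Scn10a -0.0386 with replicate 2 turned. Cacnb2 was 0.0567 as the median over its probes and 0.0537 with slide as a term. With 1 array left out, Cacna1i ranged between -0.0572 and 0.0273, Cacna1s between -0.134 and 0.0332, Cacna2d3 between -0.0332 and 0.0726, Cacnb2 between -0.0678 and 0.0219, Cacng1 between -0.0171 and 0.0450 and Cacng6 between -0.0826 and 0.0364. The cause was not tested. Kaolin and saline were already paired by array, since each array carries 1 kaolin and 1 saline sample, and their ratio is the value analysed. Leaving out the array on its own slide is the setting without replicate 5.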
